A study of Mus musculus with 24 samples.

Results

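The 8 genes described here make and sense the vessel-active messengers nitric oxide (NO) and endothelin: the NO synthases Nos1, Nos2 and Nos3, the NO receptor subunits Gucy1a1 and Gucy1b1, the peptide precursor gene Edn1 and the endothelin receptors Ednra and Ednrb. They were chosen by name, and each matched 1 of the 55487 gene identifiers listed for mouse tibialis anterior (TA) muscle. All 8 passed the filter on low counts in every comparison, where 14177 genes were tested in sedentary muscle, 14574 in fatigued muscle and 15108 over all 24 mice. RNA was sequenced from male WT C57BL/6J mice aged 5 to 7 weeks in 4 groups of 6, which crossed exercise state (sedentary or fatigued) with treatment (control or PBMT). Photobiomodulation therapy (PBMT) was 830 nm light at 25 mW/cm2 for 20 min (30 J/cm2), given to shaved legs under anesthesia 24 h before the tissue was taken. Controls were shaved and anesthetized for 20 min without light, and no sham light or heat source was used for them. Fatigued mice were dissected right after 1 treadmill run to exhaustion, whereas sedentary mice had no such run. Mice were acclimatized to the treadmill beforehand, and whether this included the sedentary mice is not given in the sources used here.

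The sedentary and fatigued mice were sequenced as separate projects, so exercise state and project cannot be told apart in any value that sets one against the other. Each sedentary mouse had between 43271093 and 52775844 counts in all, and each fatigued mouse between 53122528 and 68726155. Markers of fast fibres, the main fibre type of this muscle, summed to between 129000 and 215600 normalised CPM (counts scaled to a common library total) per mouse, and slow fibre markers to between 70.9 and 185.8 CPM. The mice sedentary control 4 and fatigued PBMT 5 lay farther from the mean of their group (0.470 and 0.490 in root mean square log2 CPM) than the other mice of their states, which lay at 0.259 to 0.332 and 0.301 to 0.394.

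Nitric oxide is made from arginine by the synthases, diffuses into smooth muscle and binds soluble guanylate cyclase, a pair of an alpha and a beta subunit that makes cyclic GMP and so relaxes the vessel wall. Endothelin 1, a peptide released by the endothelium, contracts smooth muscle through receptor A, while receptor B on endothelial cells triggers NO release and clears the peptide. In skeletal muscle the neuronal synthase Nos1 is bound to the sarcolemma of the fibres themselves, whereas Nos3 is the synthase of endothelium and Nos2 the one that inflammatory signals induce.

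In GRCm38 coordinates of GENCODE M21, Nos1 (ENSMUSG00000029361) lies at chr5:117781032-117958840, Nos3 (ENSMUSG00000028978) at chr5:24364810-24384474 and Nos2 (ENSMUSG00000020826) at chr11:78920787-78960254. The cyclase subunit genes are neighbours on the minus strand of chromosome 3, Gucy1b1 (ENSMUSG00000028005) at chr3:82032006-82074689 and Gucy1a1 (ENSMUSG00000033910) at chr3:82092427-82145789, with 17737 bases between them. Edn1 (ENSMUSG00000021367) lies at chr13:42301476-42307990, Ednra (ENSMUSG00000031616) at chr8:77663031-77724464 and Ednrb (ENSMUSG00000022122) at chr14:103814625-103844402. Exons of Nos3 share 1040 bases, 25.2% of its exon length, with the antisense gene Gm15587, which reached at most 0.061 CPM in any mouse, and 294 bases with antisense Atg9b, at most 0.298 CPM. Antisense genes overlapping exons of Nos1, Edn1 and Ednra stayed at or below 0.0881 CPM. Whether reads were counted by strand is not given in the sources used here.

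RefSeq promoter entries (GRCm38.p6) were found for 6 of the 8 genes, with 2 for Gucy1a1 and none for Nos2 or Nos3. Of these, 3 are shown over the 250 bases before the start that RefSeq annotates, 5′ to 3′ on the strand of the gene: Edn1 and Ednrb, whose RNA differed between fatigued and sedentary muscle, and Gucy1b1, whose RNA followed that of its partner subunit from mouse to mouse. Capitals mark matches to motifs searched in every window.
Edn1: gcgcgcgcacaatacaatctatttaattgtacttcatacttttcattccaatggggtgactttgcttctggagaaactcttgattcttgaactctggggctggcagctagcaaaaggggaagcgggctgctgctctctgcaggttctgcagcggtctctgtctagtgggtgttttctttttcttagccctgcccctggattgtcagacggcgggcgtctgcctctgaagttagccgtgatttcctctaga
Ednrb: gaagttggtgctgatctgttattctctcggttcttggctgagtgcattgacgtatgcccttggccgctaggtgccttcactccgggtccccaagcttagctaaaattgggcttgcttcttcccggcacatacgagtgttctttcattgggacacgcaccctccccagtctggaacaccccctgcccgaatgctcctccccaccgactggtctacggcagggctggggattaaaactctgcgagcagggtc
Gucy1b1: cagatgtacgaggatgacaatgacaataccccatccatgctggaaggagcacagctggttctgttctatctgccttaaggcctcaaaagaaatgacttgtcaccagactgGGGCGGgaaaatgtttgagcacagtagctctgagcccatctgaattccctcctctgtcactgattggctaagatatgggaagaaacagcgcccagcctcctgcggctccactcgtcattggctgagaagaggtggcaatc
The Edn1 window is chr13:42301226-42301475 on the plus strand and ends at the base before the gene. The Ednrb window is chr14:103843702-103843951 and the Gucy1b1 window chr3:82074712-82074961, both on the minus strand, and no base of the 3 windows falls in a GENCODE exon. The Ednrb window lies inside the gene as GENCODE draws it, because 1 of its transcripts there starts further upstream. The motifs were the AP-1 site TGANTCA, the hypoxia response element core ACGTG, the GATA motif AGATAA and the GC box GGGCGG of Sp1 and Klf factors, each on both strands, and the TATA box TATAAA on the given strand. They occurred in 6.75%, 16.6%, 9.99%, 32.7% and 7.59% of the 32851 RefSeq windows of this length. Among the 7 entries of these genes the only matches were GC boxes, 140 to 135 bases before the start of Gucy1b1 and 238 to 233 bases before the start of the first Gucy1a1 entry. The Edn1 and Ednrb windows held none of the 5 motifs, which says only that these letters are not in these windows.

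Nos1 was the most abundant of the 8 RNAs per length in all 24 mice. Levels per kilobase of exon, averaged over all mice, were 17.1 ± 4.26 CPM per kb (SD, n = 24) for Nos1, 4.58 ± 1.599 for Ednrb, 3.635 ± 1.29 for Nos3, 2.08 ± 0.429 for Gucy1b1, 1.61 ± 0.362 for Gucy1a1, 1.09 ± 0.620 for Edn1, 0.856 ± 0.289 for Nos2 and 0.606 ± 0.174 for Ednra. Neighbours in that order were not equally well separated. Gucy1b1 exceeded Gucy1a1 in 24 of 24 mice, Nos3 exceeded Gucy1b1 in 22, Ednrb exceeded Nos3 in 20, Gucy1a1 exceeded Edn1 in 20, Nos2 exceeded Ednra in 18 and Edn1 exceeded Nos2 in only 14. The place of Edn1 differed between states: its means were 0.434 and 0.688 CPM per kb in sedentary control and sedentary PBMT muscle, below those of Nos2 (0.976 and 0.927), and 1.38 and 1.85 in fatigued control and fatigued PBMT muscle, above those of Nos2 (0.709 and 0.811). In sedentary control muscle Edn1 was also below Ednra (0.4475), and in fatigued PBMT muscle above Gucy1a1 (1.45). Of the summed per-length level of the 3 synthases, Nos1 made up 81.7% ± 4.24 (SD, n = 6) in sedentary control, 85.1% ± 4.52 in sedentary PBMT, 75.4% ± 4.31 in fatigued control and 71.9% ± 7.21 in fatigued PBMT muscle. The share of Nos3 was 13.3% ± 3.31, 10.8% ± 3.20, 21.4% ± 4.51 and 24.3% ± 7.39 in the same order, and Nos2 averaged between 3.21% and 5.06%.

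**Figure D1:**
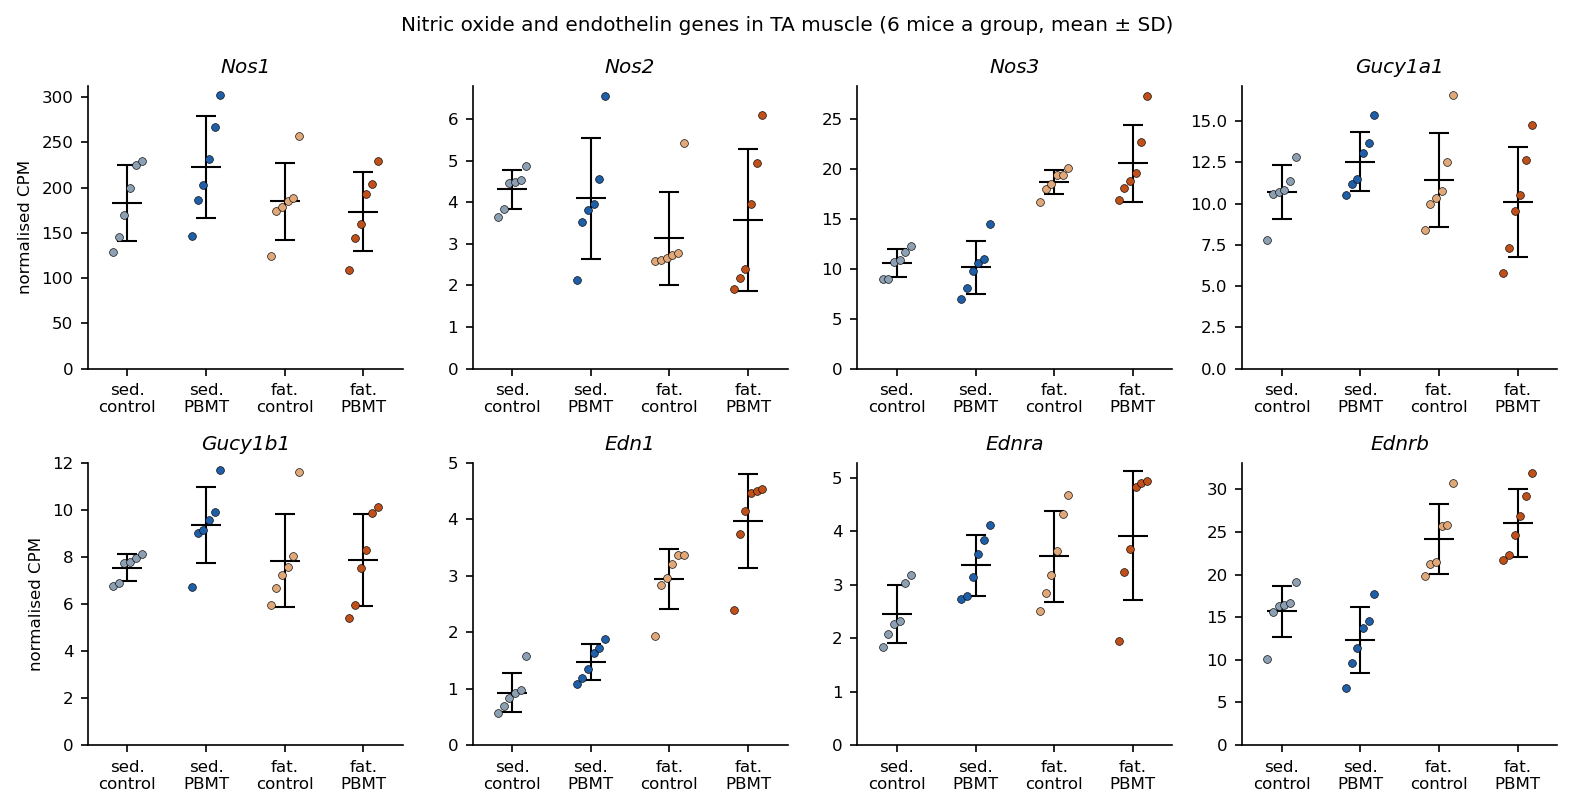
Normalised CPM of each of the 8 genes (y axis, linear, from 0) in the 4 groups (sed., sedentary; fat., fatigued). Points are mice (n = 6 a group, drawn in rising order), the long bar is the mean and the whiskers are ± 1 SD; the fatigued mice sit above all sedentary mice of the same treatment for Nos3, Edn1 and Ednrb.

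The first question was whether PBMT alone altered these RNAs in resting muscle. In sedentary muscle none of the 8 genes passed the test, where edgeR's quasi-likelihood test with Benjamini-Hochberg adjustment called 0.0282% of all genes tested at 0.05 (4 genes) and 7.63% had an unadjusted p under 0.05. That count was 60 with DESeq2 and 50 with limma voom, and with edgeR it ran from 2 (without sedentary control 1, 2 or 6) to 20 (without sedentary PBMT 5) when a mouse was left out. DESeq2 also called none of the 8, and for none did the groups of 6 stand apart without overlap, as they did for 0.508% of all genes. Edn1, Ednra and Gucy1b1 were the 3 of the 8 with unadjusted p under 0.05, each with a higher mean after PBMT. In a whole-muscle extract, more cells of a type and more RNA per cell cannot be told apart.

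Among the synthases, Nos1 spanned 129 to 229.4 CPM (median 184.4) in sedentary control and 146.2 to 302.6 CPM (median 217.3) in sedentary PBMT muscle. The fold change was 1.22 (95% interval 0.9503 to 1.57, edgeR adjusted p = 0.677), with 3 PBMT mice above all controls and 3 among them. Nos3 averaged 10.15 ± 2.62 CPM (SD, n = 6) after PBMT against 10.6 ± 1.38 CPM, a ratio of 0.961 (0.7755 to 1.19). Nos2 averaged 4.09 ± 1.45 against 4.31 ± 0.465 CPM, a ratio of 0.9525 (0.719 to 1.26). The sedentary PBMT mice were spread more widely than the controls for both genes, with coefficients of variation of 35.6% against 10.8% for Nos2 and 25.8% against 13.05% for Nos3; these spreads were not tested.

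The cyclase subunits both had higher means after PBMT. Gucy1b1, the beta subunit that carries the heme, ran from 6.78 to 8.12 CPM (median 7.765) in controls and from 6.74 to 11.7 CPM (median 9.37) in PBMT muscle. Of the PBMT mice, 5 lay above every control, and the other one, at 6.74 CPM, was close to the lowest control and was not below it in log2 CPM. The fold change was 1.24 (95% interval 1.055 to 1.465, log2 0.31 ± 0.11 SE), with unadjusted p = 0.0125 and adjusted p = 0.555 by edgeR, and the exact two-sided permutation test over the 12 mice gave p = 0.0303, unadjusted. For its alpha partner Gucy1a1 the means were 12.6 ± 1.82 and 10.7 ± 1.64 CPM, a fold of 1.18 (0.990 to 1.40, edgeR adjusted p = 0.652).

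Edn1 had the largest fold of the 8 genes in this comparison, at a low level. It ran from 0.571 to 1.58 CPM (median 0.881) in controls, whose lowest library held 26 reads of it, and from 1.08 to 1.87 CPM (median 1.49) after PBMT. In PBMT muscle 3 mice were above all controls, and the 1 control at 1.58 CPM lay among the PBMT mice, with the other controls all below every PBMT mouse. The fold change was 1.59 (95% interval 1.12 to 2.246, log2 0.67 ± 0.24 SE, edgeR adjusted p = 0.552), and the exact permutation test gave p = 0.0195, unadjusted. Without that control the log2 value was 0.89, and over the 12 fits that each left out a mouse the adjusted p stayed between 0.297 and 0.856.

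Summed endothelial markers (402 and 404.3 CPM) and mural markers (694.8 and 694.3 CPM) had nearly the same mean in the 2 sedentary groups, with 6 of 12 endothelial markers above 0 and 6 below on the log2 scale. All 10 macrophage markers and all 8 mesenchymal markers had lower means after PBMT (median log2 -0.57 and -0.22), as had the 5 neutrophil markers tested (median -0.43), and none of them was called. Summed neutrophil markers were at 1.36 and 4.64 CPM in sedentary PBMT 1 and 2, beside 22.7 to 54.8 CPM in the other sedentary mice. The part of these cell types in the values of the 8 genes was not tested.

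The receptors had means that differed in opposite directions. Ednra, the contractile receptor of smooth muscle, ran from 1.83 to 3.18 CPM (median 2.29) in controls and from 2.73 to 4.13 CPM (median 3.37) after PBMT, and 3 PBMT mice were above all controls in CPM and 4 in log2 CPM. Its fold was 1.38 (95% interval 1.09 to 1.74, edgeR adjusted p = 0.506; exact permutation p = 0.0173, unadjusted). Ednrb ran from 10.1 to 19.2 CPM (median 16.3) in controls and from 6.72 to 17.7 CPM (median 12.6) after PBMT, a ratio of 0.785 (0.589 to 1.05, edgeR adjusted p = 0.670).

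The ratio of Ednrb to Ednra per length was looked at after these values were seen, and is given as a description with no test. It was 8.46 ± 2.07 (SD, n = 6; range 5.745 to 11.5) in sedentary control and 4.61 ± 0.942 (3.09 to 5.58) in sedentary PBMT muscle, so the 2 groups did not overlap. In fatigued muscle it was 9.21 ± 2.695 (5.87 to 13.2) in controls and 9.96 ± 5.79 (5.76 to 20.9) after PBMT, where the groups overlapped. Of the 28 ratios between any pair of the 8 genes, 2 (7.14%) separated the sedentary groups, those of Ednrb to Ednra and to Gucy1a1, beside 0.559% of the ratios between any pair of genes tested. In fatigued muscle 0 of 28 did, beside 0.0574%. As these pairs share genes and mice, they are not independent of each other.

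**Figure D2:**
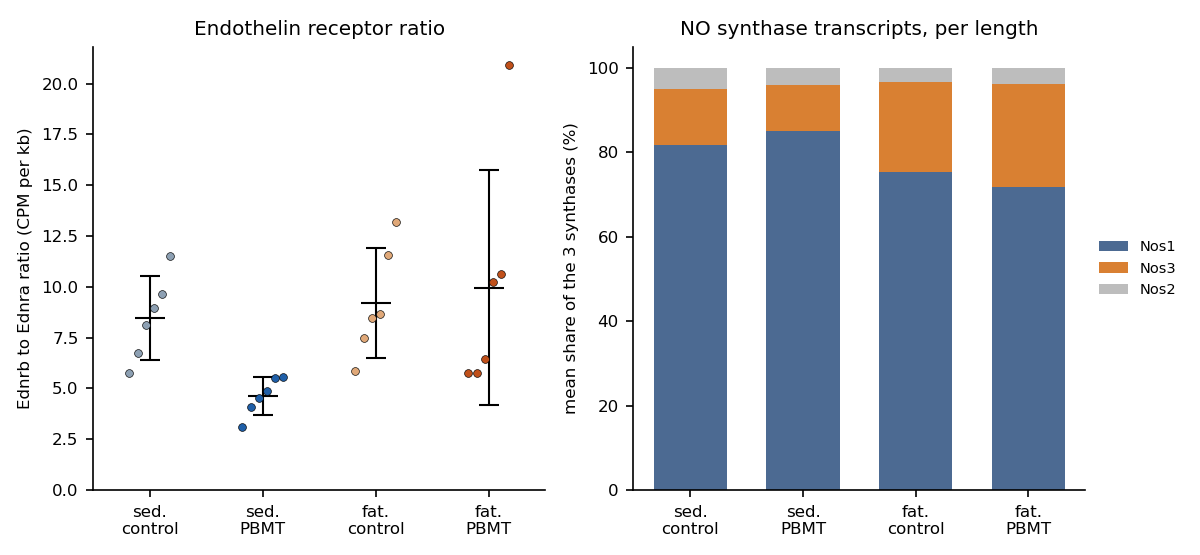
Left, ratio of Ednrb to Ednra in CPM per kb (y axis) for each mouse, with mean ± SD (n = 6 a group; sed., sedentary; fat., fatigued); sedentary PBMT mice lie at 3.09 to 5.58, below all sedentary controls. Right, mean share (%) of Nos1, Nos3 and Nos2 in the summed per-length level of the 3 synthases in each group; the Nos3 share is 10.8% to 13.3% in sedentary and 21.4% to 24.3% in fatigued muscle.

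The second question was whether mice given PBMT before exhausting exercise differed from fatigued controls. None of the 8 genes passed the test in fatigued muscle, where edgeR called 0.00% of all genes tested (0 genes; DESeq2 2), and 1.58% had an unadjusted p under 0.05. The groups of 6 overlapped for all 8 genes, and did not for 0.0343% of all genes tested. Edn1 was the only one of the 8 with an unadjusted p under 0.05. It ran from 1.94 to 3.36 CPM (median 3.08) in fatigued controls and from 2.38 to 4.53 CPM (median 4.31) after PBMT, with 5 PBMT mice above all controls and the sixth below 5 of them. The fold was 1.35 (95% interval 1.04 to 1.74, log2 0.43 ± 0.17 SE), with unadjusted p = 0.0251 and adjusted p = 0.9998 by edgeR and p = 0.0584 by the exact permutation test.

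The other 7 genes had edgeR adjusted p = 0.9998. The synthase Nos3 averaged 20.6 ± 3.85 CPM after PBMT and 18.7 ± 1.22 CPM in controls, a fold of 1.10 (95% interval 0.943 to 1.28). Nos1 averaged 173.2 ± 43.8 against 184.8 ± 42.3 CPM, a ratio of 0.937 (0.711 to 1.24). Nos2 gave a fold of 1.15, with the widest interval of the 8 genes (0.732 to 1.79). Of the fatigued PBMT mice, 3 lay below all controls for this gene and 1 above them. Gucy1b1 had nearly the same mean in both groups, 7.86 ± 1.95 and 7.85 ± 1.99 CPM, a ratio of 1.00 (0.765 to 1.315). Gucy1a1 was at 10.1 ± 3.34 against 11.4 ± 2.86 CPM, a ratio of 0.885 (0.638 to 1.23). For the receptors, Ednra gave 1.11 (0.802 to 1.54) and Ednrb 1.08 (0.907 to 1.29). Of the cell type markers none was called. All 8 Schwann cell and 8 of 10 mural markers had log2 values below 0 (median -0.30 and -0.13). All 7 slow fibre, all 8 mesenchymal and 9 of 10 macrophage markers were above 0 (median 0.44, 0.19 and 0.20). Of 12 endothelial markers, 7 were above 0 and 5 below. The part of these cell types in the values of the 8 genes was not tested.

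The difference between both PBMT effects was tested directly in a fit to all 24 mice. Its fatigued part has the same limit, as PBMT and run length cannot be told apart there. It called none of the 8 genes, beside 0.00662% of all genes tested (1 gene) and 4.40% at an unadjusted p under 0.05. For Ednrb the PBMT effect in fatigued muscle exceeded that in sedentary muscle by 0.47 ± 0.25 (SE) on the log2 scale, with a 95% interval of -0.04 to 0.97 and edgeR adjusted p = 0.946. For Gucy1a1 the difference was -0.41 (-0.93 to 0.12), for Nos1 -0.38 (-0.94 to 0.19), for Ednra -0.31 (-0.88 to 0.27), for Gucy1b1 -0.30 (-0.75 to 0.14) and for Edn1 -0.23 (-0.83 to 0.36). It was 0.27 (-0.49 to 1.04) for Nos2 and 0.20 (-0.19 to 0.59) for Nos3. All 8 intervals included 0.

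**Figure D3:**
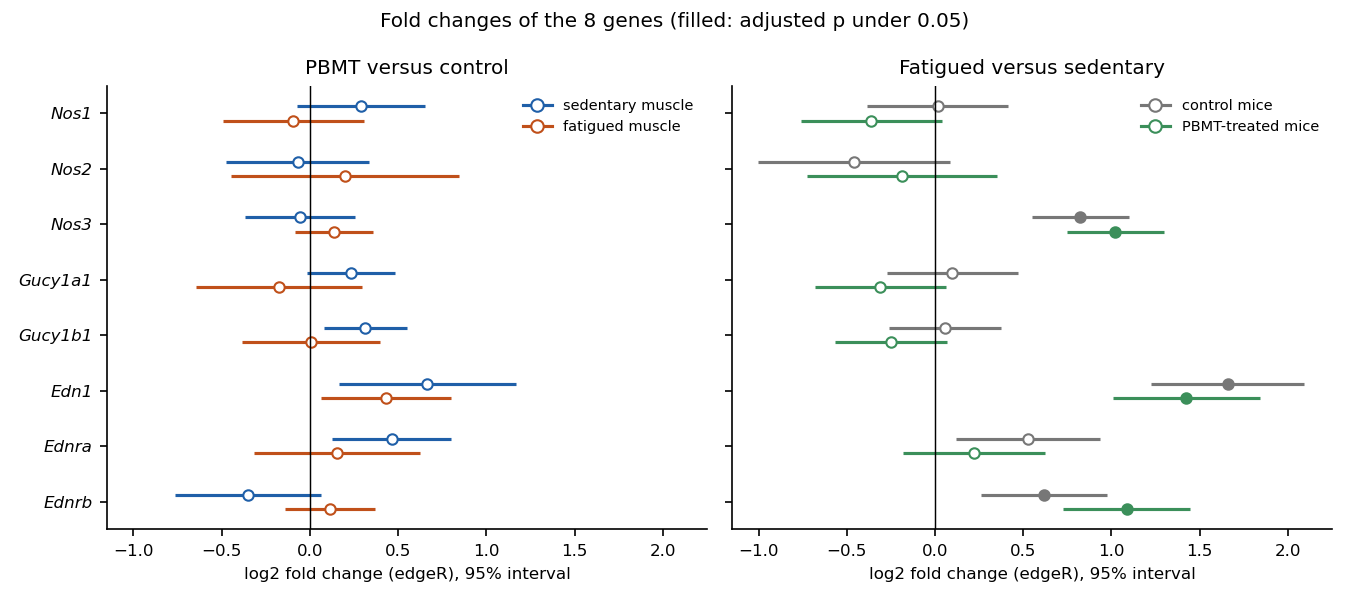
Fold changes on the log2 scale (x axis) with 95% intervals from edgeR for PBMT against control (left, in sedentary and in fatigued muscle) and fatigued against sedentary muscle (right, in controls and in PBMT-treated mice). Filled points have an adjusted p under 0.05: none on the left, and Nos3, Edn1 and Ednrb in both sets of mice on the right, where exercise state and sequencing project coincide.

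The levels in fatigued and sedentary muscle were then compared. Nos3, Edn1 and Ednrb were higher in fatigued muscle in controls and again in PBMT-treated mice, each without overlap between the groups of 6. Among controls edgeR called 3 of the 8 genes, all higher, beside 9.10% of all genes tested called higher and 18.6% called in either direction. Among PBMT-treated mice it called the same 3 genes, beside 14.1% called higher and 26.8% in either direction. Groups of 6 did not overlap for 7.70% of all genes among controls and for 11.2% among PBMT-treated mice. These 3 genes were called in each of the 12 fits per comparison that left out a mouse, including those without sedentary control 4 and fatigued PBMT 5. The 2 comparisons share no mouse, but they share both projects.

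Edn1 rose the most of the 3. Its medians were 0.881 CPM in sedentary and 3.08 CPM in fatigued controls, and 1.49 and 4.31 CPM in the PBMT-treated mice, and the lowest fatigued control, at 1.94 CPM, lay above the highest sedentary control, at 1.58 CPM. The fold was 3.16 in controls (95% interval 2.34 to 4.27, log2 1.66 ± 0.21 SE, edgeR adjusted p = 7.37e-06) and 2.69 in PBMT-treated mice (2.01 to 3.59, log2 1.43 ± 0.20, adjusted p = 1.27e-05). Nos3 rose from a median of 10.8 to 19.0 CPM in controls and from 10.2 to 19.25 CPM in PBMT-treated mice. Its fatigued mice lay between 16.8 and 27.3 CPM and its sedentary mice between 6.94 and 14.5 CPM, so all 12 fatigued mice were above all 12 sedentary mice. The folds were 1.77 (1.46 to 2.14, edgeR adjusted p = 1.22e-04) and 2.03 (1.68 to 2.46, adjusted p = 4.56e-06).

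Ednrb rose 1.54-fold in controls (1.20 to 1.97, edgeR adjusted p = 0.0149), from a median of 16.3 to 23.6 CPM, and 2.12-fold in PBMT-treated mice (1.65 to 2.73, adjusted p = 7.48e-05), from 12.6 to 25.7 CPM. In controls the gap between the groups was small: the highest sedentary mouse had 19.2 CPM and the lowest fatigued one 19.8 CPM. Ednra did not pass the test, with folds of 1.44 (1.09 to 1.92, edgeR adjusted p = 0.0648) and 1.17 (0.881 to 1.54, adjusted p = 0.433), although in controls DESeq2 called it (adjusted p = 0.0440), as did edgeR without fatigued control 3 (adjusted p = 0.0362) or without sedentary control 6 (adjusted p = 0.045). The remaining genes were not called. Nos1 had ratios of 1.01 (0.766 to 1.33) in controls and 0.778 (0.590 to 1.03) in PBMT-treated mice, and Nos2 0.727 (0.499 to 1.06) and 0.878 (0.604 to 1.28). Gucy1a1 had 1.07 (0.827 to 1.38) and 0.807 (0.624 to 1.04), and Gucy1b1 1.04 (0.834 to 1.30) and 0.842 (0.676 to 1.05).

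Markers of vascular cells were compared between the same groups. The summed level of 12 endothelial markers averaged 402 CPM (range 362.2 to 449.7) in sedentary control, 404.3 (313 to 531) in sedentary PBMT, 457.3 (384.2 to 568.5) in fatigued control and 468.9 CPM (416.5 to 547.6) in fatigued PBMT muscle, and 3 of the 12 were called higher in fatigued controls and 4 higher and 1 lower in fatigued PBMT-treated mice, where 18.6% and 26.8% of all genes tested were called. The 1 called lower was Emcn, an endothelial surface glycoprotein (log2 -0.54, edgeR adjusted p = 0.0186). No endothelial or mural marker was at 0 in any mouse. Per 1000 CPM of these markers, Nos3 averaged 26.3 ± 2.54 and 24.99 ± 3.64 CPM in sedentary control and PBMT muscle and 41.9 ± 7.51 and 44.6 ± 11.4 CPM in the fatigued groups. Edn1 averaged 2.315 ± 0.851, 3.86 ± 1.45, 6.57 ± 1.63 and 8.51 ± 2.04 on that scale, and Ednrb 39.35 ± 7.95, 29.95 ± 5.80, 52.7 ± 2.04 and 56.55 ± 12.8. On this scale the means of all 3 genes were higher in the fatigued groups, and 2 pairs of ranges overlapped: Nos3 in controls (22.95 to 30.15 against 29.49 to 50.57) and Edn1 in PBMT-treated mice (2.04 to 5.97 against 5.43 to 10.7). The part of endothelial cell content in these differences was not tested.

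Markers of other cell types also differed, and their part in these differences was not tested. The marker counts given for them stand beside 9.10% of all genes tested called higher in fatigued controls and 14.1% in fatigued PBMT-treated mice. Mural markers (10 genes) summed to 694.8 CPM (599.6 to 791.9) in sedentary control, 694.3 (562 to 855.7) in sedentary PBMT, 761.2 (692.1 to 841.1) in fatigued control and 703.6 CPM (656.8 to 747.1) in fatigued PBMT muscle, and 2 and 3 of them were called higher in the fatigued mice. The 10 macrophage markers, of interest for Nos2, averaged 82.7 CPM (52.2 to 133.2), 53.8 (37.98 to 72.3), 98.7 (72.15 to 139.8) and 106.7 CPM (54.8 to 204.2), and 1 of them was called higher in fatigued controls and 8 in fatigued PBMT-treated mice, while Nos2 was called in neither. Neutrophil markers (6 genes) summed to between 1.36 and 54.8 CPM in sedentary mice and between 0.320 and 4.00 CPM in fatigued mice, where 6 were called lower in controls and 5 in PBMT-treated mice. Ly6g was at 0 in some mice of 3 groups, and S100a8, Cxcr2 and Retnlg were at 0 in some fatigued controls.

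Mesenchymal markers (8 genes) summed to 871.2 CPM (698.5 to 1053) in sedentary control, 736.5 (554 to 1066) in sedentary PBMT, 1302 (954.5 to 1572) in fatigued control and 1564 CPM (905.4 to 3251) in fatigued PBMT muscle. Of these 8 markers 1 was called higher in fatigued controls and 7 in fatigued PBMT-treated mice, with median log2 fold changes of 0.52 and 0.92, and none was at 0 in any mouse. The fast fibre sums averaged 150400, 156700, 198700 and 194000 CPM in the same order, and 5 and 3 of those 10 markers were called higher.

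The wider pathway was described from lists that name other genes of each step. No gene of these lists was called in either PBMT comparison or in the difference between them. In fatigued against sedentary muscle their counts stand beside 18.6% of all genes tested called in either direction in controls and 26.8% in PBMT-treated mice, and nothing particular to a list is read from them. Among 21 other genes of NO synthesis and its regulation, 18 were tested, of which 3 rose and 1 fell in fatigued controls and 4 rose and 1 fell in fatigued PBMT-treated mice, with median log2 fold changes of 0.05 and 0.16 beside -0.012 and 0.0021 over all genes tested. Ass1, which makes the precursor that is turned back into arginine, rose by 1.13 and 0.59 on the log2 scale (edgeR adjusted p = 5.66e-05 and 0.0104). Slc7a1, an arginine importer, rose by 0.85 and 1.39 (adjusted p = 7.11e-04 and 1.10e-06), from means of 2.90 and 2.56 CPM to 5.23 and 6.70 CPM. Slc7a2, of the same transporter family and on the same list, had group means between 77.5 and 93.45 CPM. It was not called, with log2 values of -0.04 in controls and -0.27 in PBMT-treated mice. Hsp90aa1, a chaperone that binds Nos3, rose by 1.03 and 0.95 (adjusted p = 8.15e-06 and 9.10e-06). Pts, an enzyme of tetrahydrobiopterin synthesis, fell by 0.29 and 0.42, while Gch1, the first enzyme of that route, rose by 0.53 in PBMT-treated mice (adjusted p = 0.0287) and was not called in controls (log2 0.35). Cav3, the caveolin of muscle fibres, was not called, with log2 values of -0.15 in controls and 0.06 in PBMT-treated mice. Gchfr was among those that did not pass the filter.

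The list of cyclic GMP signalling held 17 other genes, all tested, among them the cyclase subunit Gucy1a2 and the receptor cyclases Npr1 and Npr2. Of these, 2 rose and 1 fell in fatigued controls, and 3 rose and 2 fell in PBMT-treated mice. The medians were 0.09 and -0.07 beside -0.012 and 0.0021 over all genes. Both counts are near the shares called over all genes (18.6% and 26.8%). Prkg1, the kinase that cyclic GMP activates, had the largest change of this list: it averaged 32.0 ± 4.25 CPM in sedentary control, 40.9 ± 10.7 in sedentary PBMT, 16.2 ± 2.45 in fatigued control and 15.0 ± 3.90 CPM in fatigued PBMT muscle (SD, n = 6), and fell by 0.98 and 1.44 on the log2 scale (edgeR adjusted p = 3.62e-04 and 2.28e-06). The phosphodiesterase gene Pde3a rose by 0.70 and 0.56 (adjusted p = 9.11e-04 and 0.00350), and Ppp1r12a, the targeting subunit of myosin phosphatase, by 0.22 and 0.26 (adjusted p = 0.0373 and 0.0124). Pde1a rose by 0.73 and Mrvi1 fell by 0.31 in PBMT-treated mice (adjusted p = 0.0203 and 0.0486), and neither was called in controls (log2 0.65 and -0.23). Pde5a, the main phosphodiesterase for cyclic GMP in smooth muscle, was not called, with log2 values of 0.09 and 0.01. Of 7 genes for NO removal, Adh5 fell in controls (log2 -0.17, adjusted p = 0.0175; -0.12 and not called in PBMT-treated mice) and Cyb5r3 rose in PBMT-treated mice (0.43, adjusted p = 0.00451; 0.30 and not called in controls).

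In the endothelin pathway, 3 of 6 other genes were tested. Ece1, which cleaves the precursor to the active peptide, averaged 63.6 ± 7.035, 68.3 ± 3.16, 82.9 ± 10.7 and 83.55 ± 15.7 CPM in the 4 groups in the order above. Like Edn1, it was called higher in fatigued muscle, by 0.38 in controls and 0.29 in PBMT-treated mice on the log2 scale (edgeR adjusted p = 0.00968 and 0.0345). The ligand gene Edn3 fell by 0.88 in PBMT-treated mice (adjusted p = 0.00376) with a log2 value of -0.34 in controls (adjusted p = 0.296). Mme, a peptidase that degrades endothelin, was not called (-0.08 and 0.02). The third ligand gene, Edn2, had at most 4 reads in any mouse, and Kel had none.

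Among 27 other vasoactive genes tested, 6 rose and 3 fell in fatigued controls and 8 rose and 2 fell in PBMT-treated mice, with medians of 0.21 and 0.40 beside -0.012 and 0.0021 over all genes, of which 18.6% and 26.8% were called. Piezo1, a channel that senses flow and stretch, rose by 0.82 and 0.87 (edgeR adjusted p = 1.93e-05 and 4.03e-06) and Ace, the angiotensin-converting enzyme, by 0.62 and 1.10 (adjusted p = 1.68e-04 and 4.11e-08). Agt, the angiotensin precursor gene, rose by 0.68 and 0.91 (adjusted p = 0.019 and 0.00142). Adra2a rose by 1.10 in controls (adjusted p = 0.0423) and was not called in PBMT-treated mice (log2 0.40). Ptgis, Ramp3 and Klf4 rose by 1.30, 1.40 and 0.88 in PBMT-treated mice (adjusted p from 0.00152 to 0.0156) and were not called in controls (log2 0.88, 0.42 and 0.34). Klf2, a flow-induced factor of endothelium that is known to raise Nos3, fell by 0.93 and 0.83 (adjusted p = 0.00711 and 0.00948). Agtr1a, an angiotensin receptor, fell by 0.77 in controls (adjusted p = 0.00771) and was not called in PBMT-treated mice (log2 -0.37).

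The genes also differed from mouse to mouse within groups. After each group's mean was subtracted, the log2 CPM of Gucy1a1 and Gucy1b1 correlated over the 24 mice (Pearson's r = 0.91, Spearman's rho = 0.92, r = 0.89 without the 2 mice farthest from the median of Gucy1a1). The per-length ratio of Gucy1a1 to Gucy1b1 was 0.774 ± 0.0809 (SD, n = 24) and stayed between 0.601 and 0.912. Nos2 followed Gucy1b1 as closely (r = 0.92, rho = 0.89, 0.89 without 2 mice), and of the 15108 genes it was the one most like Nos2. Nos3 and Gucy1b1 gave r = -0.09 (rho = -0.29), which became -0.58 without 2 mice. Ednra correlated with Gucy1a1 at r = 0.78 (rho = 0.77, 0.68 without 2 mice). Edn1 followed none of the other 7 genes, with r between -0.22 and -0.06, rho between -0.33 and -0.05, and r between -0.32 and 0.17 without 2 mice. These points share libraries and tissue pieces, so the values are descriptions.

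Some mice stood at the end of the range for several genes. Fatigued control 5 had the highest Nos1, Nos2, Gucy1a1, Gucy1b1, Ednra and Ednrb of its group and the lowest Nos3. Sedentary PBMT 2 had the highest Nos2, Nos3, Gucy1a1, Gucy1b1, Ednra and Ednrb of its group and the lowest Edn1. Fatigued PBMT 3 had the lowest Nos2, Gucy1a1, Gucy1b1 and Ednra of its group, with the highest Nos3 and Ednrb. The summed endothelial markers correlated with Nos2 (r = 0.77, rho = 0.70, 0.67 without 2 mice) and Gucy1b1 (r = 0.71, rho = 0.60, 0.58) more than with Nos3 (r = 0.35, rho = 0.16, 0.23), and the macrophage markers with Nos2 at r = 0.24 (rho = 0.05, 0.09). Ednrb correlated with the summed mural markers (r = 0.76, rho = 0.56, 0.58) more than with the endothelial ones (r = 0.54, rho = 0.43, 0.34).

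**Figure D4:**
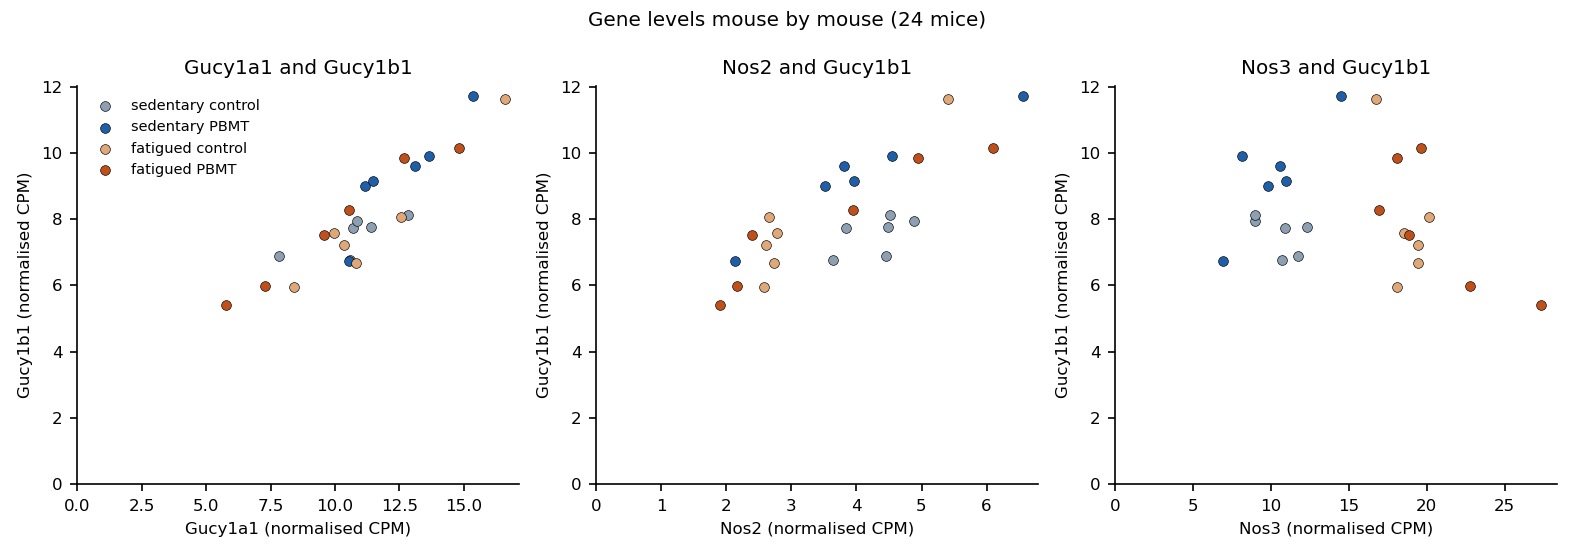
Normalised CPM of Gucy1b1 (y axis) against Gucy1a1, Nos2 and Nos3 (x axes), one point per mouse (24 mice, coloured by group, axes from 0). Gucy1a1 and Nos2 follow Gucy1b1 from mouse to mouse (r = 0.91 and 0.92 within groups), whereas Nos3 gave r = -0.09 (-0.58 without the 2 mice farthest from its median) and lies higher in all fatigued than in all sedentary mice.

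By the same measure, the 3 genes most like each of the others were Samd4, Arfgef2 and Gemin5 for Nos1 (r = 0.86, 0.86 and 0.84), Apol6, Rasip1 and Acvrl1 for Nos3 (0.82, 0.81 and 0.81), and Mb, Rgs5 and Ndufab1 for Ednrb (0.85, 0.84 and 0.84). For Gucy1a1 they were Sema6a, Gucy1b1 and Inpp1 (0.93, 0.91 and 0.90), for Gucy1b1 Afdn, Nos2 and Gucy1a1 (0.93, 0.92 and 0.91), and for Nos2 Gucy1b1, Samd5 and Afdn (0.92, 0.91 and 0.91). Ednra was most like Ppp1r16b, Ahr and Gm43063 (0.85, 0.84 and 0.80), and Edn1 had the weakest best matches, Gm49797, Gm44509 and Kdelr1 (0.77, 0.74 and 0.69). Over all these matches rho ran from 0.61 to 0.92, and r without the 2 farthest mice from 0.61 to 0.93.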

How the data were processed

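RNA was from the left TA muscle of 24 mice, 1 library each. The authors deposited whole-number counts per gene, not normalised or pooled. The submitters' processing notes name Trimmomatic, STAR 2.7.1a, Picard 2.20.4, StringTie 2.0.4, featureCounts 1.6.0, HTSeq and GRCm38, and their roles, the strand setting and the annotation are not given in the sources used here, so coordinates and symbols are those of GENCODE M21. Symbols were matched for 55227 of 55487 identifiers.

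Each PBMT comparison was fitted within its state, and the others over all 24 mice, in R 4.3.3 with edgeR 4.0.16 (TMM normalisation, filterByExpr minimum count 10, robust quasi-likelihood test, Benjamini-Hochberg adjustment over the whole table at 0.05). The fit was tested on simulated data. CPM used TMM-scaled totals, log2 CPM a prior count of 2, and CPM per kb the union of GENCODE exons. Single genes were also tested by exact two-sided permutation of 6 mice against 6 (924 arrangements, smallest p = 0.00216). The spread between mice includes counting error, whose share is larger for genes with few reads, and p-values measure the spread between mice of 1 cohort per project. Alternatives were DESeq2 1.42.0, limma 3.58.1 (voom with sample weights), other scalings and filters, removal of a transcript length trend, a replicate block, and leaving out each mouse. No per-sample column was left out.

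The genes and lists were chosen with earlier results of these data known. Named are the 8 genes in every comparison, every listed pathway gene called in a PBMT comparison, up to 5 called genes per list and fatigued against sedentary comparison with the largest log2 fold change, and the 3 genes most correlated with each of the 8. Cav3, Slc7a2, Pde5a, Mme, Edn2, Kel, Gchfr and Emcn, and values of a named gene in the other comparison, were added after their values were seen. Some genes of the lists are not reported here. No pair of mice among 276 agreed within sampling noise (smallest chi-square per gene 11.5).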

Additional observations from a re-analysis of the deposited data

Results flagged for a closer look

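In 68 sets of 6 mice (a gene or a marker sum in a group), 6 had a mouse whose gap to its nearest neighbour, divided by the range of the group in log2 CPM, exceeded the 95% critical value of Dixon's ratio, which chance passes in about 1 set in 20. For Nos2 the mouse fatigued control 5 had 5.41 CPM, while the rest of its group lay at 2.58 to 2.77 CPM (ratio 0.904). For Edn1 the mouse fatigued control 3 was low at 1.94 CPM against 2.83 to 3.36 CPM (ratio 0.688), and fatigued PBMT 2 was low at 2.38 CPM against 3.74 to 4.53 CPM (ratio 0.7025). For Ednrb the mouse sedentary control 4 was low at 10.1 CPM against 15.65 to 19.2 CPM (ratio 0.682). The same mouse had the highest summed fast fibre markers of its group (ratio 0.644), and fatigued control 5, high for Nos2, had the lowest of its group (ratio 0.6875).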

How the results depend on the processing

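None of the 8 genes was called for PBMT or for the difference between its effects under any alternative run, and Nos3, Edn1 and Ednrb were called in fatigued against sedentary muscle under all of them, in controls and in PBMT-treated mice. Ednra was also called in controls by DESeq2 and by limma voom (adjusted p = 0.0253 at the lowest, 0.12 at the highest over 9 alternatives) and by edgeR in 2 of 12 fits without a mouse, those without fatigued control 3 and without sedentary control 6. The number of genes called for PBMT in sedentary muscle, 4, was less stable: 16 with no filter on low counts, 60 with DESeq2, 50 with limma voom, 11 with each library's trend on transcript length removed, 1 with all 24 mice in the fit, and 2 to 20 when a mouse was left out (2 without sedentary control 1, 2 or 6, 18 without sedentary control 4, and 10, 7 and 20 without sedentary PBMT 2, 4 and 5). In fatigued muscle the 0 calls became 2 with DESeq2. The difference of the PBMT effects gave 1 to 3 calls when a mouse was left out (3 without sedentary PBMT 2), and fatigued against sedentary controls gave 4945 calls with limma voom in place of 2809. The causes were not tested.

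The labels do not say that replicate numbers pair the mice, and same-numbered mice correlated at -0.0859 to 0.0843 in sedentary and -0.103 to 0.342 in fatigued muscle, where 4 of 6 pairs were above 0.1 (0.236, 0.232, 0.159 and 0.342) and 3 mice were closest to their own number. As not every pair was above 0.1, the numbers were not taken to pair the mice. With the replicate block 11 genes were called for PBMT in sedentary muscle and 1 in fatigued muscle, and with the block and removal of the length trend together 14 and 1, and 0 for the difference. The block changed no call of the 8 genes.

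Signs changed only for uncalled values. For PBMT in fatigued muscle, Nos1 was 0.059 on the log2 scale with limma voom, and Gucy1b1 was -0.0010 with no filter, -0.0011 with the replicate block and -0.0013 with the block and the length trend removed. The Gucy1b1 difference of the permutation test was 0.0143 in CPM and 0.0076 with library totals. In fatigued against sedentary controls, Nos1 was -0.031 with the length trend removed and -0.033 with the block added, and Gucy1a1 and Gucy1b1 were -0.017 and -0.029 with limma voom. When a mouse was left out, values ran in sedentary muscle from -0.25 to 0.064 for Nos2 and -0.18 to 0.033 for Nos3, in fatigued muscle from -0.19 to 0.025 for Nos1, -0.024 to 0.42 for Nos2 and -0.083 to 0.15 for Gucy1b1, and between controls from -0.10 to 0.11 for Nos1, -0.040 to 0.17 for Gucy1a1 and -0.089 to 0.13 for Gucy1b1. Edn1 in fatigued muscle reached p = 0.0368 in the exact permutation test on CPM in place of log2 CPM.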

Other observations

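Within groups, levels of several of the 8 genes also followed marker sums of the fibres, the nerve and erythrocytes, over 24 mice and with no test. The fast fibre sum was lower where Gucy1a1 (r = -0.65, rho = -0.65, -0.56 without 2 mice), Nos2 (r = -0.58, rho = -0.67, -0.72) and Gucy1b1 (r = -0.57, rho = -0.61, -0.57) were higher, although Nos1, the synthase of the fibres, was unrelated to it (r = 0.01, rho = -0.07, -0.01). It was also lower where Ednrb was higher (r = -0.57, rho = -0.41, -0.38). Nos1 was lower where the summed Schwann cell markers were higher (r = -0.57, rho = -0.47, -0.40). The summed erythrocyte markers were higher where Ednra (r = 0.57, rho = 0.57, 0.55) and Nos2 (r = 0.54, rho = 0.49, 0.58) were higher. Nos3 followed the slow fibre sum (r = 0.44, rho = 0.55, 0.42), whereas Nos1 was lower where that sum was higher (r = -0.48, rho = -0.51, -0.49). CPM are shares of a library and not independent of each other, and the part of that in these values was not tested.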
